A study of Mus with 10 samples.

Results

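The receptors for interleukin (IL)-6, IL-27 and IL-10 are built from 5 chains, encoded by *Il6ra*, *Il6st*, *Il27ra*, *Il10ra* and *Il10rb*. The genes were taken from the gene table by their symbols, and all 5 were found among its 24564 genes. All 5 also passed the filter on low counts, which kept 11463 genes for testing. IL-6 binds IL-6Rα, and the pair then engages gp130, the product of *Il6st*, which carries the signal. IL-27 is bound by IL-27Rα together with the same gp130. IL-10 is bound by IL-10Rα, the chain specific to it, and IL-10Rβ, a chain also used by the receptors for IL-22 and type III interferon. All of these receptors act through Janus kinases and STAT3. SOCS3, the product of a STAT3 target gene, binds gp130 and dampens its signal. In the liver, IL-6 is best known for driving the acute phase response of hepatocytes, and IL-10 and IL-27 for restraining inflammation.

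The chains were compared between type 1 innate lymphoid cells (ILC1s), tissue-resident lymphocytes, from livers of *Ncr1*gfp/gfp and *Ncr1*+/+ C57BL/6 mice aged 6 to 8 weeks, with 5 libraries of each genotype. *Ncr1* encodes the activating receptor NKp46, and in *Ncr1*gfp/gfp mice *gfp* replaces it in every cell that uses its promoter. Their ILC1s were therefore sorted by GFP, while those of *Ncr1*+/+ mice were sorted by NKp46. The study's methods name a purchase for the *Ncr1*+/+ mice, and its reporting summary names one for mice of both genotypes. All cells were also sorted as lineage-negative, NK1.1+, CD49a+ and CD49b-, and were sequenced freshly sorted, with no treatment named. Mice of either sex were used, and the study describes the samples as pools of RNA without saying how many mice each library came from, so that p-values measure the spread between libraries.

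Each library held 15796253 to 22623133 counts, and 3 counts, the limit that a count of 0 allows, stood for 0.132 to 0.190 CPM, the count of a gene scaled to the size of its library. These limits, like all counting errors below, cover counting error only. The targeted gene had 259 ± 97.5 CPM in *Ncr1*gfp/gfp against 2029 ± 100 CPM in *Ncr1*+/+ ILC1s (SD, n = 5 each), so that reads on *Ncr1* were fewer but present in every *Ncr1*gfp/gfp library. The summed CPM of 7 ILC1 markers spanned 3973 to 4271 in *Ncr1*gfp/gfp against 3989 to 4251 in *Ncr1*+/+ libraries. Within this list *Il7r* was called lower, with means of 84.6 against 166 CPM, where 0.532% of all tested genes were called lower. *Itga1*, the gene of CD49a, was higher at 971 against 779 CPM (edgeR adjusted p = 0.000481) without passing the fold limit. Summed markers of other lymphocytes moved with the genotype, with 136 to 210 against 98.8 to 120 CPM for 6 natural killer (NK) cell genes. For 8 T cell genes the sums were 633 to 835 against 461 to 579 CPM. *Itgam* of the first list and *Cd3e* and *Cd8a* of the second were called higher, where 0.201% of all tested genes were called higher. In the NK cell list *Itgam* had means of 96.0 against 49.4 CPM. *Eomes*, *Itga2* and *Klra8* were higher and *S1pr5* was lower, none with an adjusted p-value under 0.05 (edgeR), and *Cma1* was near 0. Most of the T cell sum was *Cd3g*, with means of 687 against 501 CPM (edgeR adjusted p = 0.00169), which did not pass the fold limit. *Cd3d* and *Cd4* were higher with adjusted p-values of 0.0527 and 0.923 (edgeR), and *Cd8b1* was at or near 0 in both genotypes. Hepatocyte markers reached 57.3 CPM in *Ncr1*gfp/gfp replicate 3 and 32.0 CPM in *Ncr1*+/+ replicate 1, the highest of their genotypes. Markers of macrophages and Kupffer cells summed to 9.74 to 40.7 CPM in *Ncr1*gfp/gfp against 14.7 to 62.1 CPM in *Ncr1*+/+ libraries. The part of these cells in the differences described here was not tested. In such bulk samples, fewer cells of a type and less RNA per cell cannot be told apart.

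The chains fell into 2 tiers of expression in both genotypes. Per kilobase of exon, over all 10 libraries, the mean level was 93.3 CPM for *Il10rb*, 81.5 CPM for *Il27ra* and 48.9 CPM for *Il10ra*, against 2.32 CPM for *Il6st* and 0.302 CPM for *Il6ra*. Of all tested genes, 95.8% had a level per kilobase at or below that of *Il10rb*, and 3.20% at or below that of *Il6ra*. The IL-10 chains and IL-27Rα were thus among the more abundant transcripts of these ILC1s, while the transcript of gp130, the chain on which IL-6 and IL-27 both rely, lay at the 19.0th percentile. The order of neighbours was clear of the spread between libraries for all but the upper pair. *Il10rb* spanned 84.1 to 111 and *Il27ra* 72.9 to 89.4 CPM per kilobase, so that their ranges overlapped, although *Il10rb* was the higher of the pair within each of the 10 libraries. *Il10ra*, at 37.5 to 57.1, *Il6st*, at 1.67 to 3.17, and *Il6ra*, at 0 to 0.996 CPM per kilobase, overlapped neither with each other nor with the upper pair. These levels depend on the exon lengths listed in the table, from 1850 bases for *Il10rb* to 5452 bases for *Il6st*.

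**Figure D1:**
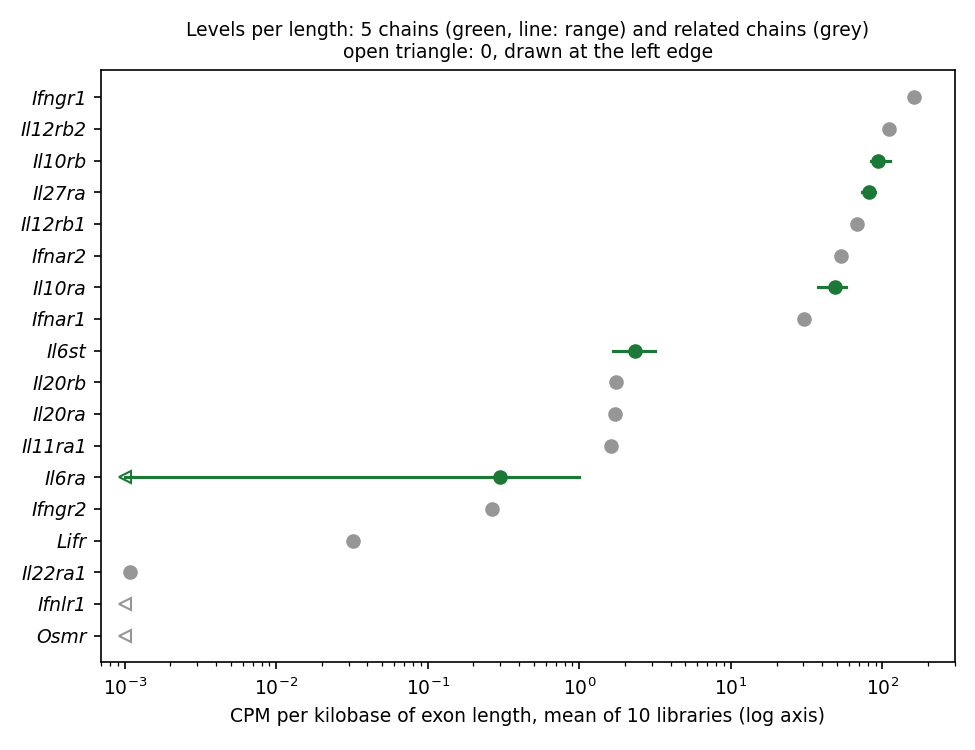
Level per kilobase of exon (CPM per kilobase, log axis) of the 5 receptor chains and of related chains (grey), with points for the mean of 10 libraries, lines for the range of the 5 chains (green) over the libraries and open triangles for a value of 0, drawn at the left edge. *Il10rb*, *Il27ra* and *Il10ra* lie well above *Il6st*, and *Il6ra*, with 0 counts in 1 library, is the lowest of the 5 at a mean of 0.302.

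None of the 5 chains met the criteria for a called gene in the comparison of the genotypes, an adjusted p-value under 0.05 with a fold change above 1.5 or below 0.7 (quasi-likelihood test of edgeR, adjusted over the 11463 genes by the Benjamini-Hochberg method). Of all tested genes, 84 met them, a background of 0.733% (0.532% lower and 0.201% higher in *Ncr1*gfp/gfp ILC1s), so that a count of 0 among 5 genes does not set the chains apart. DESeq2, edgeR's likelihood ratio test and limma-voom with quality weights also called 0 of the 5. A single chain, *Il10ra*, had an unadjusted p-value under 0.05, as did 11.4% of all tested genes. The 95% intervals of the fold change lay inside the limits of 0.7 and 1.5 for *Il6st*, *Il27ra*, *Il10ra* and *Il10rb*, and only that of *Il6ra* extended past both.

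**Figure D2:**
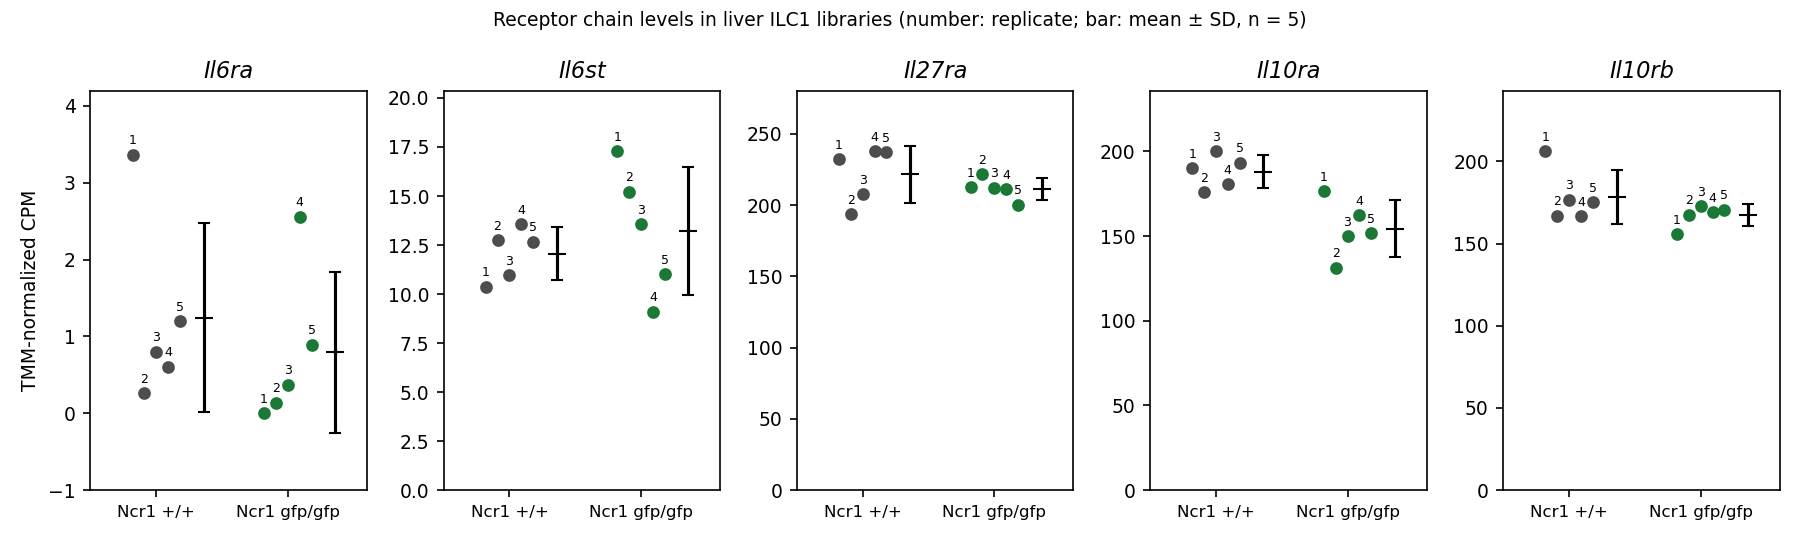
CPM of each receptor chain in the 5 libraries of each genotype, 1 panel per chain with its own axis, with points for libraries and bars for the mean and the SD, which reaches below 0 for *Il6ra*. The genotypes overlap for each chain, and for *Il10ra* 4 of the 5 *Ncr1*gfp/gfp libraries lie below all *Ncr1*+/+ libraries.

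*Il10ra*, the chain that gives IL-10 its own receptor, was the one with the smallest p-value in the edgeR comparison of the genotypes. It is listed at positions 45061920 to 45077232 of chromosome 9 (minus strand), in coordinates whose genome build the table does not name. Its level was 177, 131, 149.7, 162 and 152 CPM in *Ncr1*gfp/gfp replicates 1 to 5 and 189.9, 176, 199.9, 181 and 193 CPM in *Ncr1*+/+ replicates 1 to 5. The *Ncr1*+/+ libraries were all above the *Ncr1*gfp/gfp libraries except that *Ncr1*gfp/gfp replicate 1 slightly exceeded *Ncr1*+/+ replicate 2. The means were 154 ± 16.7 and 188 ± 9.65 CPM (SD, n = 5 each), and the fitted level in *Ncr1*gfp/gfp ILC1s was 0.821 of that in *Ncr1*+/+ ILC1s (95% interval 0.740 to 0.910).

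This difference of *Il10ra* stood at the edge of the threshold. Its log2 fold change was -0.29 (SE 0.07, unadjusted p = 0.000687, edgeR adjusted p = 0.0501), and an exact permutation test on its CPM alone gave a two-sided p = 0.0159, where the smallest possible p was 0.00794. Of all tested genes, 1.35% had an adjusted p-value under 0.05. The estimate kept its direction in all 18 alternative fits, but its adjusted p-value ranged from 0.00942 with DESeq2 to 0.165 in the fit without *Ncr1*gfp/gfp replicate 3 and *Ncr1*+/+ replicate 1, the libraries with the most hepatocyte marker counts, and it was under 0.05 in 8 of them. When 1 library was left out, it passed only without *Ncr1*gfp/gfp replicate 1, at an adjusted p of 0.0134, or without *Ncr1*+/+ replicate 2, at 0.0440 (edgeR). The table lists a microRNA gene, *Mir7086*, inside *Il10ra* on the same strand. It held 6 counts over all libraries, which does not show how many reads of *Il10ra* the overlap affected.

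**Figure D3:**
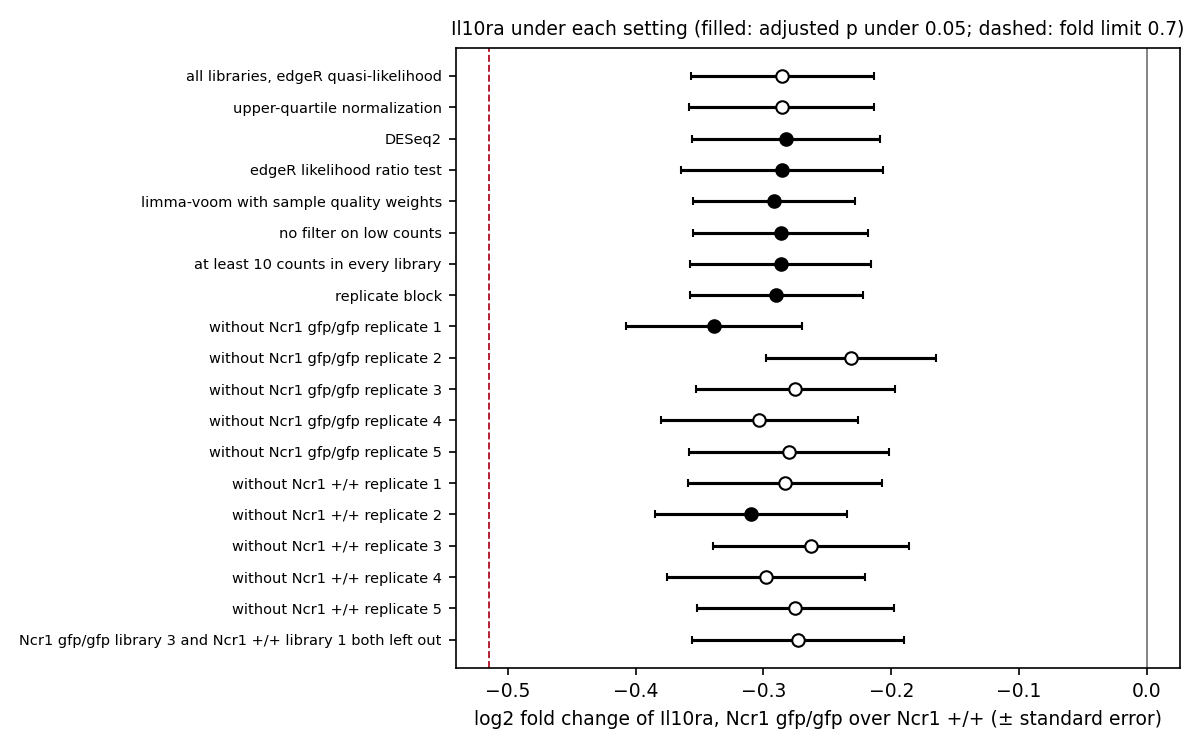
Log2 fold change of *Il10ra* (*Ncr1*gfp/gfp over *Ncr1*+/+, horizontal axis) in the main test and in the alternative fits, with bars for the standard error, filled points for an adjusted p-value under 0.05, open points for a larger one and a dashed line at the fold change of 0.7. Each estimate is below 0, and 8 of the 18 alternatives pass the threshold, which the main test misses with an adjusted p of 0.0501.

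*Il10rb*, at positions 91406480 to 91426079 of chromosome 16 (plus strand), encodes the second chain of the IL-10 receptor. It was nearly level across 9 of the 10 libraries. It had 156, 168, 173, 169 and 171 CPM in *Ncr1*gfp/gfp against 206, 167, 177, 166 and 175 CPM in *Ncr1*+/+ replicates 1 to 5. Only *Ncr1*+/+ replicate 1 stood above the others, and the genotypes overlapped. The fold change was 0.938 (95% interval 0.853 to 1.03, log2 fold change -0.09, SE 0.07, edgeR adjusted p = 0.666).

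Within a library, *Il10ra* was the lower of the IL-10 receptor pair. The ratio of *Il10ra* to *Il10rb*, both per kilobase, was 0.5999, 0.414, 0.459, 0.508 and 0.470 in *Ncr1*gfp/gfp against 0.488, 0.558, 0.598, 0.574 and 0.583 in *Ncr1*+/+ replicates 1 to 5. Replicate 1 of each genotype went against the other 4 of its group, the *Ncr1*gfp/gfp one having the highest ratio of all libraries and the *Ncr1*+/+ one the lowest of its genotype. The means were 0.490 ± 0.0699 and 0.560 ± 0.0431 (SD, n = 5 each), and the ranges overlapped.

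The IL-27-specific chain *Il27ra*, at positions 86554185 to 86566474 of chromosome 8 (minus strand), was abundant and steady. It had 213, 222, 212, 211 and 200.3 CPM in *Ncr1*gfp/gfp against 232, 194, 208, 238 and 237 CPM in *Ncr1*+/+ replicates 1 to 5. The lowest and the highest values were both from *Ncr1*+/+ libraries, which enclosed all *Ncr1*gfp/gfp libraries. The fold change was 0.955 (95% interval 0.871 to 1.05, log2 fold change -0.07, SE 0.06, edgeR adjusted p = 0.780). It shares 10 bases with *Palm3* on the opposite strand, which held 11 counts over all libraries.

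*Il6st*, at positions 113254278 to 113297068 of chromosome 13 (plus strand), encodes the gp130 chain shared by the IL-6 and IL-27 receptors. It had 17.3, 15.2, 13.6, 9.10 and 11.0 CPM in *Ncr1*gfp/gfp against 10.4, 12.7, 10.9, 13.6 and 12.7 CPM in *Ncr1*+/+ replicates 1 to 5. Here the *Ncr1*gfp/gfp libraries were the more widely spread and enclosed all *Ncr1*+/+ libraries. The fold change was 1.10 (95% interval 0.858 to 1.40, log2 fold change 0.13, SE 0.17, edgeR adjusted p = 0.849). Among the *Ncr1*gfp/gfp libraries, the order of *Il6st* was also that of the summed NK cell markers, which ran from 210 CPM in replicate 1 to 136 CPM in replicate 4. Among the *Ncr1*+/+ libraries it was not, since replicate 4, with the most *Il6st*, had the lowest NK cell sum, 98.8 CPM, and replicate 5, with the highest sum, 120 CPM, had an intermediate *Il6st* level. *Itgam* had the highest mean within the NK cell sum, and the part of NK cells in this spread was not tested. Per kilobase, *Il27ra* exceeded its partner *Il6st* 34.4 ± 8.52 times in *Ncr1*gfp/gfp against 38.1 ± 5.37 times in *Ncr1*+/+ ILC1s (SD, n = 5 each).

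*Il6ra*, at positions 89673246 to 89717118 of chromosome 3 (minus strand), encodes the chain that binds IL-6, and it was barely detected. It had 0, 0.137, 0.371, 2.56 and 0.893 CPM in *Ncr1*gfp/gfp against 3.36, 0.265, 0.800, 0.606 and 1.20 CPM in *Ncr1*+/+ replicates 1 to 5. The values rested on 184 counts in all, of which 43 were from *Ncr1*gfp/gfp replicate 4 and 60 from *Ncr1*+/+ replicate 1. The library without a count allowed a level of up to 0.190 CPM. The genotypes overlapped, and the fold change of 0.637 had a 95% interval from 0.192 to 2.11 (log2 fold change -0.65, SE 0.83, edgeR adjusted p = 0.849). A change past either fold limit could therefore not be told from no change, and the log2 fold change was 0.13 without *Ncr1*+/+ replicate 1. *Ncr1*gfp/gfp replicate 4 and *Ncr1*+/+ replicate 1, with the most *Il6ra* of their genotypes, had the least *Il6st*, and the library without *Il6ra* counts had the most *Il6st*. Per kilobase, *Il6ra* was below *Il6st* in all 10 libraries.

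**Figure D4:**
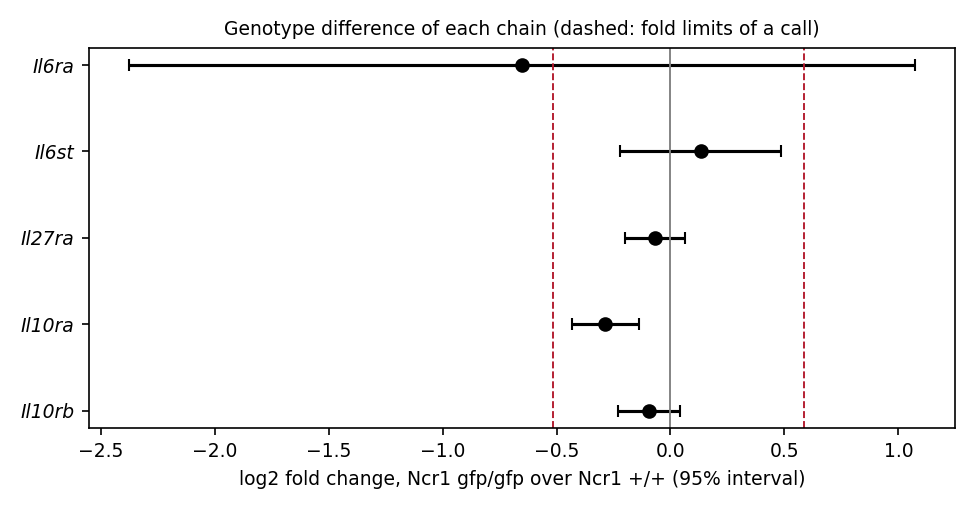
Log2 fold change (*Ncr1*gfp/gfp over *Ncr1*+/+) of the 5 receptor chains with 95% intervals, with dashed lines at the fold changes of 0.7 and 1.5 that a called gene had to pass. The interval of *Il10ra* lies below 0 and inside the limits, and that of *Il6ra* spans both limits.

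The spread among libraries of a genotype was tight for the abundant chains and wide for *Il6ra*. For *Il27ra* the coefficient of variation was 3.61% in *Ncr1*gfp/gfp against 9.00% in *Ncr1*+/+ ILC1s, for *Il10rb* 4.00% and 9.09%, and for *Il10ra* 10.9% and 5.14%. Counting error alone gave 1.52% to 1.91% for these chains. For *Il6st* the values were 24.6% and 11.1%, where counting error gave 6.46% and 6.47%. For *Il6ra* they were 132% and 98.8%, where counting error gave 27.1% and 20.8%. All 5 chains thus varied between libraries by more than counting error. The biological coefficient of variation that edgeR estimated was 7.74% to 8.47% for the abundant chains, 18.6% for *Il6st* and 82.2% for *Il6ra*, against a median of 13.0% over all tested genes.

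Transcripts of most ligands were at or near 0 in these cells. Of 18 ligand genes of the IL-6, IL-12 and IL-10 families, 8 had no count in any library, among them *Il6* and *Il27*, the gene of the IL-27 p28 subunit. *Il10* had 3 counts, all in 1 *Ncr1*+/+ library, and *Ebi3*, the other IL-27 subunit, had 18. Only *Clcf1* and *Osm*, which encode gp130 cytokines, passed the filter, and neither was called (1 of the pair had an unadjusted p-value under 0.05 in the edgeR test). Such a p-value was found for 11.4% of all tested genes, the background of this count for each list below. *Osm*, the gene of oncostatin M, had 5.51 ± 1.01 CPM in *Ncr1*gfp/gfp against 8.50 ± 3.42 CPM in *Ncr1*+/+ ILC1s (SD, n = 5 each, log2 fold change -0.63, SE 0.25, edgeR adjusted p = 0.313). *Clcf1*, which encodes cardiotrophin-like cytokine factor 1, was higher in level, at 93.1 ± 6.64 and 84.8 ± 7.77 CPM (log2 fold change 0.13, edgeR adjusted p = 0.539).

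Of the other chains with which the shared subunits pair, several were at or near 0. *Osmr* and *Lifr*, which join gp130 in the receptors for oncostatin M and leukaemia inhibitory factor, had 0 and 61 counts over all libraries. *Il22ra1* and *Ifnlr1*, the partners of IL-10Rβ in the receptors for IL-22 and type III interferon, had 1 and 0 counts. *Il11ra1*, whose product binds IL-11 and then joins gp130, was detected in all 10 libraries at a low level, with means of 3.06 CPM in *Ncr1*gfp/gfp against 3.31 CPM in *Ncr1*+/+ ILC1s, or 1.62 CPM per kilobase over all libraries, above *Il6ra* (log2 fold change -0.11, edgeR adjusted p = 0.953). Of the 5 chains, *Il10ra* for *Il10rb* and *Il27ra* for *Il6st* were the partners with the higher levels. Of 10 other chains of the gp130 family 3 were tested, and of 10 other class II cytokine receptor chains 6 were tested, with 0 called in either list and medians of the log2 fold change of -0.07 and -0.12, against 0.00 over all tested genes. One gene of each list had an unadjusted p-value under 0.05 in the edgeR test, where 11.4% of all tested genes did. *Il12rb2*, the signalling chain of the IL-12 receptor, averaged 353 ± 16.7 CPM without NKp46 against 322 ± 19.7 CPM with it. *Ifngr1*, the ligand-binding chain for IFN-γ, averaged 321 ± 26.5 against 357 ± 28.0 CPM (SD, n = 5 each). The log2 fold changes of *Il12rb2* and *Ifngr1* were 0.13 (edgeR adjusted p = 0.334) and -0.16 (edgeR adjusted p = 0.330). *Il12rb1*, the other IL-12 receptor chain, and *Ifnar1*, a chain for type I interferon, had log2 fold changes of -0.07 and -0.05. Per kilobase *Il12rb2* and *Ifngr1* stood at 111 and 161 CPM over all libraries, above each of the 5 chains.

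The machinery below the receptors was expressed, and none of its genes was called. All 11 Janus kinase and STAT genes were tested, 0 were called, and 9 had a log2 fold change below 0, with a median of -0.07 (1 had an unadjusted p-value under 0.05 in the edgeR test). *Stat3* had 354 ± 7.12 CPM in *Ncr1*gfp/gfp against 372 ± 19.0 CPM in *Ncr1*+/+ ILC1s (SD, n = 5 each, log2 fold change -0.07, edgeR adjusted p = 0.641). *Jak2*, which encodes a kinase used by gp130, had 485 ± 16.0 and 545 ± 35.6 CPM, without overlap between the genotypes. Its log2 fold change was -0.17 (SE 0.05, edgeR adjusted p = 0.129), and 3.11% of all tested genes had no overlap, 1.82% being lower in *Ncr1*gfp/gfp ILC1s. *Jak1*, *Tyk2* and *Stat5a* had log2 fold changes of -0.03, -0.07 and -0.18. Of 8 genes for trafficking and shedding of receptors, among them *Adam10* and *Adam17*, the proteases that release soluble IL-6Rα, 7 were tested and 0 were called, with 0 at an unadjusted p-value under 0.05 in the edgeR test. *Cbl*, the gene of a ubiquitin ligase, and *Erbin*, the gene of a scaffold protein, had log2 fold changes of 0.04 and 0.07. DESeq2, the likelihood ratio test and limma-voom also called 0 genes of the ligand, receptor, kinase and trafficking lists.

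Among inhibitors, 17 of 18 genes were tested, and *Socs3* alone was called, being lower in *Ncr1*gfp/gfp ILC1s, where 0.532% of all tested genes were called lower. It had 13.8, 14.6, 19.1, 21.2 and 15.9 CPM in *Ncr1*gfp/gfp against 33.6, 23.5, 28.6, 33.0 and 25.1 CPM in *Ncr1*+/+ replicates 1 to 5. The genotypes did not overlap, where 1.82% of all tested genes were lower without overlap. The log2 fold change was -0.76 (SE 0.14, edgeR adjusted p = 0.00404), a call kept in all 18 alternative fits. Of the other 16, 0 were called, 3 of the 17 had an unadjusted p-value under 0.05 in the edgeR test, and the median of the list was 0.06. *Ptprc*, the gene of the phosphatase CD45, was the most abundant per kilobase, with a log2 fold change of 0.06. *Socs2*, which dampens growth hormone signalling, had 111 CPM in *Ncr1*gfp/gfp against 95.2 CPM in *Ncr1*+/+ ILC1s (edgeR adjusted p = 0.238).

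Of 30 genes known as STAT3 targets, 25 were tested, of which 2 were called lower and 0 higher, where 0.532% of all tested genes were called lower. The log2 fold change was below 0 for 18 of the 25, against 5648 of all 11463 tested genes. The median was -0.19, and 12 had an unadjusted p-value under 0.05 in the edgeR test, against 11.4% of all tested genes. An adjusted p-value under 0.05 without the fold limit was reached by 5, all lower, where 0.785% of all tested genes were lower by that criterion. These were *Socs3*, *Maf*, *Pim1*, *Junb* and *Fos*. The list was chosen with earlier results of these data known, so that its counts describe it and are no test of STAT3 targets. *Maf*, a transcription factor gene linked to IL-10 production, averaged 87.8 ± 4.92 CPM in *Ncr1*gfp/gfp against 122 ± 12.2 CPM in *Ncr1*+/+ libraries (SD, n = 5 each, log2 fold change -0.48, SE 0.07, edgeR adjusted p = 0.00126). *Pim1*, the gene of a survival kinase, had 233 to 266 and 293 to 371 CPM (log2 fold change -0.37, SE 0.06, edgeR adjusted p = 0.00186). For both, the genotypes did not overlap, where 1.82% of all tested genes were lower without overlap. For both, the adjusted p-value stayed under 0.05 in all 18 alternative fits.

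*Junb* and *Fos* encode subunits of the AP-1 transcription factor and are induced early by many stimuli, including cell handling. *Fos* averaged 67.2 ± 25.3 CPM in *Ncr1*gfp/gfp against 155 ± 83.4 CPM in *Ncr1*+/+ libraries (SD, n = 5 each), and the means of *Junb* were 521 and 719 CPM. Their log2 fold changes were -1.21 (SE 0.29) and -0.46 (SE 0.11). The genotypes overlapped for both, and the adjusted p-values, 0.0377 for *Fos* and 0.0334 for *Junb* (edgeR), rose above 0.05 in 11 and 10 of the 18 alternative fits. Among fits without 1 library, *Fos* passed only without *Ncr1*gfp/gfp replicate 4 or *Ncr1*+/+ replicate 3 or 5, and *Junb* only without *Ncr1*gfp/gfp replicate 1 or *Ncr1*+/+ replicate 3 or 5. Without the libraries with the most hepatocyte marker counts, the adjusted p-value stayed under 0.05 for *Socs3*, *Maf* and *Pim1*. It rose to 0.218 for *Fos* and 0.125 for *Junb* (edgeR). Of the 25 genes only *Socs3* was called in that fit, where 60 of all tested genes were called.

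**Figure D5:**
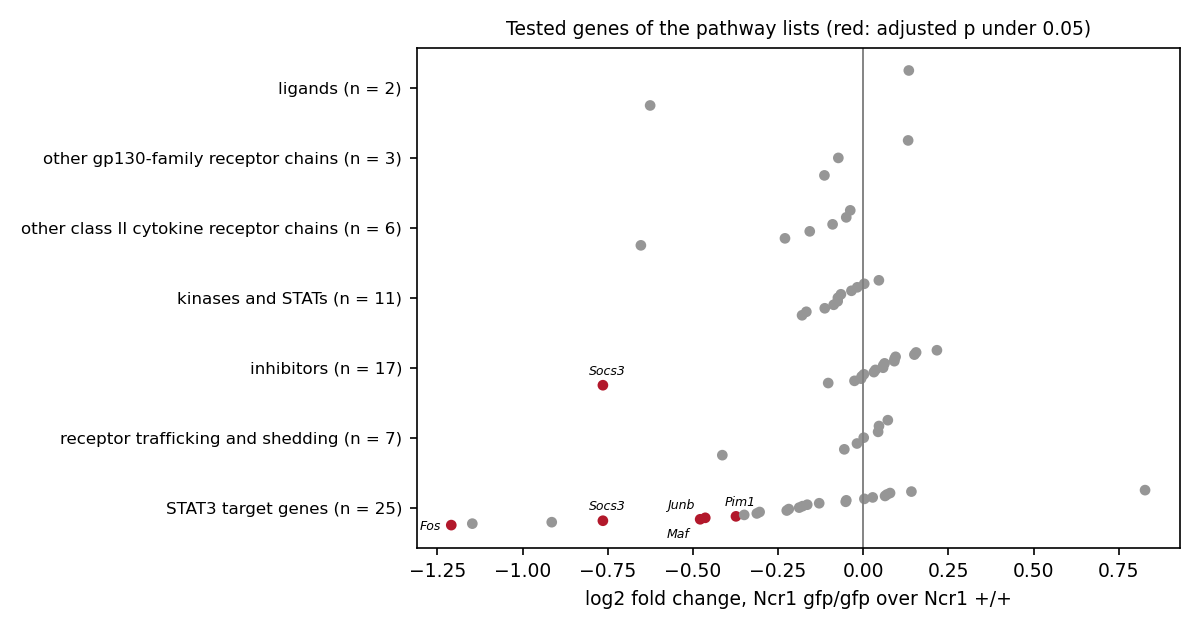
Log2 fold change (*Ncr1*gfp/gfp over *Ncr1*+/+, horizontal axis) of each tested gene of 7 lists around the receptors, 1 point per gene, spread vertically within a list for legibility, with red for an adjusted p-value under 0.05. *Socs3* appears in the inhibitor and STAT3 target lists, and the red points, all below 0, are otherwise STAT3 targets.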

How the data were processed

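The authors trimmed single-end reads with Trimmomatic and FASTP, mapped them with STAR to mm10 and counted reads per gene with HTSeq at default settings, and the deposited counts were not normalized. Each library was amplified from 2 ng of RNA, with reads of 51 cycles. The kit does not mark strand, so that overlapping genes cannot be told apart. Coordinates and exon lengths are those listed in the deposited table.

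After filterByExpr and TMM scaling, the genotypes were compared by the quasi-likelihood test of edgeR (edgeR 4.0.16, limma 3.58.1, DESeq2 1.42.0, R 4.3.3), with *Ncr1*+/+ as the reference. Called genes had a fold change above 1.5 or below 0.7 beside an adjusted p under 0.05, following the study's methods. The printed CPM uses TMM-scaled library sizes where compared within a gene, and the total depth was 15796253 to 22623133 counts. Libraries of a genotype differed beyond sampling noise in all 20 pairs.

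The chains, the lists and the tests were chosen with earlier results of these data known. From each list were named the called genes, the most abundant tested gene per kilobase, the 2 tested genes with the smallest p and a few preset genes, and for each chain the 2 genes with the highest Pearson correlation. Genes outside this rule were named for their role, and 1 preset gene is not reported here. Alternatives were upper-quartile scaling, DESeq2, the likelihood ratio test, limma-voom with quality weights, no filter, at least 10 counts in every library, a replicate block, each library left out, TPM in place of CPM, no fold limit and, chosen after seeing the data, 2 libraries left out together.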

Additional observations from a re-analysis of the deposited data

Results flagged for a closer look

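A library was singled out where its gap to the nearest other library of its genotype exceeded 0.71 of the genotype's range, Dixon's limit for 5 samples. Of 68 groups of 5 values examined, 7 exceeded it, where chance gives about 3.4.

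Among the chains, 1 value stood apart, that of *Il10rb* in *Ncr1*+/+ replicate 1, at 206 CPM. *Ncr1*gfp/gfp replicate 2, which also had the lowest *Il10ra* level of all libraries, was singled out as the lowest of its genotype for 3 genes. It had 274 CPM of *Ifngr1*, 457 CPM of *Jak2* and 233 CPM of *Pim1*. Without passing the limit, it was also the lowest of its genotype for *Osm*, *Jak1*, *Ifnar1* and *Ptprc*. The summed hepatocyte markers were 32.0 CPM in *Ncr1*+/+ replicate 1 and 57.3 CPM in *Ncr1*gfp/gfp replicate 3. The summed neutrophil markers were 10.5 CPM in *Ncr1*gfp/gfp replicate 3.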

How the results depend on the processing

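*Il6st*, *Il27ra* and *Il10rb* kept their direction and stayed past no threshold in all 18 alternatives. Their log2 fold changes ranged from 0.01 to 0.24, from -0.11 to -0.04 and from -0.12 to -0.04. The number of chains called was 0 in each alternative. For *Il10ra* the log2 fold change was -0.28 with DESeq2 (adjusted p = 0.00942), -0.29 with the likelihood ratio test (0.0194), limma-voom (0.0165), no filter (0.0115), at least 10 counts in every library (0.0360) and the replicate block (0.0450), each now past the threshold. With 1 library left out it was -0.34 to -0.23 (adjusted p 0.0134 to 0.140, edgeR). *Il6ra* turned in direction without *Ncr1*+/+ replicate 1, within a range of -1.81 to 0.13, and without that library and *Ncr1*gfp/gfp replicate 3, at 0.32. It was not tested with at least 10 counts in every library. The cause of these shifts was not tested. The log2 fold change of *Jak1* was near 0, ranged from -0.0644 to 0.00217 with 1 library left out, and turned above 0 without *Ncr1*+/+ replicate 1, and at 0.00654 without both of those libraries. Over all genes, 84 calls became 138 with the likelihood ratio test, 131 with no filter and 155 with no fold limit, and 60 to 98 with 1 library left out.

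Libraries of the same replicate number did not deviate together, with correlations between -0.0263 and 0.0523, so that the replicate block pairs libraries by number alone. *Il6ra* rests on 184 counts and varied between libraries by more than counting error, and no direction can be given for it.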

Other observations

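For each chain, the other tested genes were ranked by how closely their log2 level followed it over the 10 libraries, after adding 0.5 CPM. These values describe libraries that share genotype and preparation, and no test was made of them. *Il10ra* was followed most closely by *Cyp4v3*, a fatty acid hydroxylase gene (Pearson's r 0.979, Spearman's rho 0.964), and *Casp4*, an inflammatory caspase gene (0.946 and 0.842). *Casp4* was itself lower in *Ncr1*gfp/gfp ILC1s, with a log2 fold change of -0.82 (adjusted p = 0.0139, edgeR's quasi-likelihood test), while the value for *Cyp4v3* was -0.35 (edgeR adjusted p = 0.127). *Il27ra* was followed by *Rhog* (r 0.952, rho 0.939) and *Coro1a* (0.951 and 0.964), genes of the actin cytoskeleton and its control. *Il10rb* was followed by *Ndufb2* (r 0.915, rho 0.745) and *Rnf113a1* (0.905 and 0.855), *Il6st* by *Elof1* (0.917 and 0.879) and *Gcsam* (0.908 and 0.939), and *Il6ra* by *Abtb1* (0.920 and 0.867) and *AI597479* (0.919 and 0.939).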
